A study of Homo sapiens with 3 samples.

Results

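Promoters of the genes for mitochondrial ribosomal proteins were examined for peaks of CHD8 and of TRRAP in cultured neural stem cells of human origin. Members were the protein-coding genes of GENCODE release 44 whose symbol starts with MRPL or MRPS, followed by a number and at most 1 letter. This gave 78 of 20033 protein-coding genes, 49 named for the large subunit (MRPL) and 29 for the small subunit (MRPS), on 21 chromosomes. The rule uses gene symbols alone. All libraries came from wild-type (WT) cells that had been made from H9, a line of human embryonic stem cells, and were grown with EGF and FGF. No treatment was compared. Chromatin crosslinked with disuccinimidyl glutarate and formaldehyde was immunoprecipitated with an antibody against CHD8 in 1 library and against TRRAP in another, and peaks were called in each. A library made with control IgG was not analysed here. With 1 library per antibody there was no replicate error, so no p-value was computed. The Wilson 95% intervals given with shares cover counting error over genes only. The number of reads behind each list is unknown, and a gene without a peak had no signal past the threshold of its list, which is not the same as no binding. Peak lists do not measure expression, so the cell type could not be checked against its marker genes.

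The mitochondrial ribosome translates the few messenger RNAs of the mitochondrial genome, all of which encode subunits of the oxidative phosphorylation complexes. Its RNAs are transcribed in the mitochondrion, whereas all of its proteins are encoded in the nucleus, translated in the cytosol and imported. Nuclear promoters must therefore supply the whole set. CHD8 is an ATP-dependent chromatin remodeler, and its gene is among those most often disrupted in autism. TRRAP is a large scaffold protein that links transcription factors, among them MYC and E2F proteins, to the histone acetyltransferase complexes TIP60 and SAGA.

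The following promoters are shown because they held some of the strongest peaks of either protein. MRPL48 had the highest CHD8 fold and MRPS2 the highest TRRAP rank. MRPL44 and MRPL22 had high CHD8 folds and no TRRAP peak, and MRPL42 had high folds of both. Each sequence runs 5′ to 3′ on the strand of the gene from 250 bases before to 50 bases from the start site of the canonical transcript, which is base 251. Coordinates are on GRCh38, and distances from a start site are negative upstream of it. Capitals mark exact matches, on either strand, to 7 short consensus words: CCGGAAGT (ETS factors), CGCATGCG (NRF1), AAGATGGCG (YY1), CACGTG (the E-box of MYC and MAX), GCGGGAAA (E2F), GGGCGGG (SP factors) and CCAAT (NFY).
MRPL48, chr11:73787624-73787923, plus strand: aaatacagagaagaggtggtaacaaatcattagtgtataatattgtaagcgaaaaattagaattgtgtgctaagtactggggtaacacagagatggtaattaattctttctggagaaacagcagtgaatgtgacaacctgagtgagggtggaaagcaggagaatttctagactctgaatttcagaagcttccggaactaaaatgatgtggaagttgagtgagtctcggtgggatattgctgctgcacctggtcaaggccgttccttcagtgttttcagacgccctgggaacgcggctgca
MRPS2, chr9:135500432-135500731, plus strand: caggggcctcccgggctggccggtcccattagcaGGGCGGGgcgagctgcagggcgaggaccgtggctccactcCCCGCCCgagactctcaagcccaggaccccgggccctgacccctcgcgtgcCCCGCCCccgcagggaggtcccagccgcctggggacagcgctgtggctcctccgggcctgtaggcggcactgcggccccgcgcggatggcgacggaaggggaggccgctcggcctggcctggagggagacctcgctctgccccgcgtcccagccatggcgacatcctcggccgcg
MRPL44, chr2:223957213-223957512, plus strand: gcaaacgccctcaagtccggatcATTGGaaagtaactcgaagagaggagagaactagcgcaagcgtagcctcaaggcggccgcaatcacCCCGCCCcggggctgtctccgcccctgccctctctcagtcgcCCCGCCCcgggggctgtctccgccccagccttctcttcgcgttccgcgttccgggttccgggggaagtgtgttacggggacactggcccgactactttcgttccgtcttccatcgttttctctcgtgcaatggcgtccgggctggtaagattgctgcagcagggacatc
MRPL22, chr5:154940823-154941122, plus strand: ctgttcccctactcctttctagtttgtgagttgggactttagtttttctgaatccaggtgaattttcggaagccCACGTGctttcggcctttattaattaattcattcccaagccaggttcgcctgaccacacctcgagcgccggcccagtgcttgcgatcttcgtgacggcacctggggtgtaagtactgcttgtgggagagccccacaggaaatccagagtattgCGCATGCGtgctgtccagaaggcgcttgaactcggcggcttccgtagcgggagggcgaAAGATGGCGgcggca
MRPL42, chr12:93467264-93467563, plus strand: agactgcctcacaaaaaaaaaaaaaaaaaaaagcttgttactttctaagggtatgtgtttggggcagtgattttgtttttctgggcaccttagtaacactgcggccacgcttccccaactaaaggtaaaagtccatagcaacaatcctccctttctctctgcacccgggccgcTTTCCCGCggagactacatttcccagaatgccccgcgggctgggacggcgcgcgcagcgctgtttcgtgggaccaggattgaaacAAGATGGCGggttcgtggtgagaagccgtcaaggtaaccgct

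MRPL48 held none of the words in this window. MRPS2 held the SP word alone, and MRPL44 held the SP and NFY words. MRPL22 held an E-box, an NRF1 word before the start site and a YY1 word after it, and MRPL42 held an E2F word and a YY1 word. A match is a description of the sequence and not a measured binding site, and the absence of one says only that these letters were not found in this window.

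CHD8 peaks were present at nearly every gene of the mitochondrial ribosome. A peak overlapped the region from 1 kb before to 1 kb after the start site (the promoter) at 77 of 78 genes (98.7%, 93.1 to 99.8), while 55.9% of all protein-coding genes had one. TRRAP peaks were present at 41 of 78 genes (52.6%, 41.6 to 63.3), against 34.9% of all protein-coding genes. Every TRRAP peak of a member lay at a gene that also had CHD8. Among all protein-coding genes, 6802 of the 7000 with TRRAP also had CHD8. Both peaks were thus present at the same 41 members (52.6%), against 34.0% of all genes. The remaining 36 members with CHD8 had no TRRAP peak, and 1 member had neither. Both peaks are more frequent at promoters rich in CpG dinucleotides. Among the 14181 genes whose CpG ratio (observed over expected CpG within 500 bp of the start site) was at or above that of the lowest member, 75.7% had CHD8 and 48.1% had TRRAP. When other genes were weighted to the members' deciles of CpG ratio, 74.0% had CHD8 and 45.4% had TRRAP. The CHD8 share of the members lay above that value by more than its counting interval, and the TRRAP share did not.

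The CHD8 peaks were also strong within their list. Their fold, the deposited linear ratio of ChIP signal to the background that the caller used, ranged from 8.43 to 53.1 with a median of 18.1 (25th to 75th percentile 14.2 to 26.1). The median over all 11208 genes with a CHD8 promoter peak was 12.0 (9.31 to 16.4), and 62 of the 77 members (80.5%) lay above it. When all genes with a CHD8 peak were ranked by the significance of that peak, 24 of the 77 members (31.2%, 21.9 to 42.2) fell in the strongest of 10 equal bins, and none fell in the weakest. The strongest bin held 18 large-subunit and 6 small-subunit genes. CHD8 widths had a median of 698 bp (598 to 845 bp), against 638 bp (420 to 898 bp) over all genes with a peak. TRRAP folds, in contrast, were ordinary for their list. They ranged from 5.78 to 21.1 with a median of 9.12 (7.69 to 11.5), against 8.65 (7.21 to 11.5) over all genes with a TRRAP peak, and 21 of 41 members (51.2%) lay above that median.

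**Figure D1:**
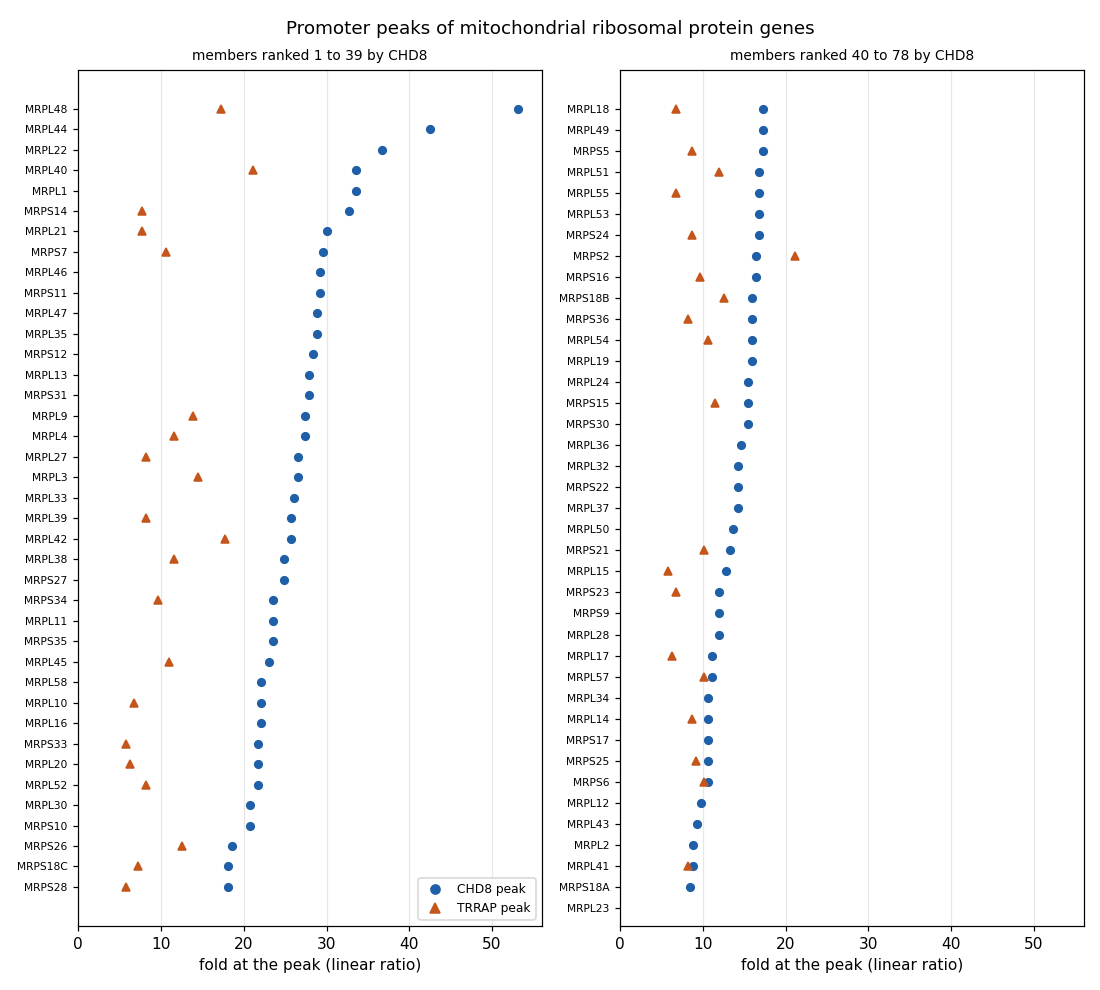
Fold of the strongest CHD8 peak (circles) and TRRAP peak (triangles) within 1 kb of the start of each of the 78 genes, ordered by CHD8 rank from top left to bottom right; a missing symbol means no peak in that list, and folds are comparable only within a list. CHD8 falls from 53.1 at MRPL48 to 8.43 at MRPS18A, MRPL23 has neither symbol, and triangles are scattered over the whole range of CHD8.

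MRPL48, a large-subunit protein, stood first. Its CHD8 peak at chromosome 11, 73787690 to 73788304, had a fold of 53.1 and a −log10 q of 172, with the summit 65 bp into the transcript, in the 5′ UTR of exon 1. It ranked 103 among 23393 CHD8 peaks, and 99.6% of the genes with a CHD8 promoter peak had a lower fold. Its TRRAP peak (73787753 to 73788293) had a fold of 17.2, with the summit 274 bp downstream of the start, in intron 1, the most downstream TRRAP summit of the family. The promoter is the one printed above without any of the words.

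MRPL44, whose protein has a fold related to ribonuclease III, had a CHD8 fold of 42.5 (chromosome 2, 223957172 to 223957940, summit at −36 bp). MRPL22, which lines the tunnel through which the new protein leaves, had a fold of 36.7 (chromosome 5, 154940902 to 154941593), with the summit 45 bp downstream in the coding sequence of exon 1. MRPL1, a protein of the mobile stalk beside the exit for transfer RNA, had a fold of 33.6 (chromosome 4, 77862246 to 77863255, summit at −91 bp). None of these 3 genes had a TRRAP peak, and their nearest TRRAP peaks were 12000, 82444 and 42714 bp away, respectively. MRPL40 also had a CHD8 fold of 33.6 (chromosome 22, 19431627 to 19432983), but its summit lay 750 bp upstream. MRPS14, a protein of the head of the small subunit, had a fold of 32.7 (chromosome 1, 175023021 to 175023715, summit at −13 bp) and a weak TRRAP peak with a fold of 7.69.

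Most of the highest TRRAP folds were found at genes with strong CHD8 peaks, and MRPS2 was the exception. MRPS2, a core protein of the small subunit, had a TRRAP fold of 21.1 over a broad peak of 1084 bp (chromosome 9, 135499727 to 135500810) and a CHD8 fold of 16.4, below the members' median. It was the single member whose TRRAP fold exceeded its CHD8 fold, although folds of the 2 lists have no common scale. MRPL40 likewise had a TRRAP fold of 21.1 (chromosome 22, 19432275 to 19432682), with that summit at −103 bp and 647 bp from the CHD8 summit, the widest separation in the family. MRPL42, found in mitochondrial but not in bacterial ribosomes, had a TRRAP fold of 17.7 (chromosome 12, 93467415 to 93467845) beside a CHD8 fold of 25.7, and the 2 summits were 29 bp apart in intron 1. MRPL3, which reaches toward the site of peptide bond formation, had a TRRAP fold of 14.4 (chromosome 3, 131502733 to 131503026) and a CHD8 fold of 26.5. MRPL9, the counterpart of a bacterial large-subunit protein, had a TRRAP fold of 13.9 (chromosome 1, 151763394 to 151763616) and a CHD8 fold of 27.4. The TRRAP folds of MRPS2 and MRPL40 each exceeded those of 95.4% of genes with a TRRAP promoter peak.

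Part of the family had strong CHD8 peaks without TRRAP. Among all genes, TRRAP was present at 77.6% of the strongest CHD8 bin (folds from 23.9) and at 74.4% of the next (folds from 18.1). Of the 37 members with a CHD8 fold above the members' median, 18 had no TRRAP peak, near the share of all members with CHD8 (36 of 77). In the large subunit these were MRPL1, MRPL11, MRPL13, MRPL16, MRPL22, MRPL30, MRPL33, MRPL35, MRPL44, MRPL46, MRPL47 and MRPL58. In the small subunit they were MRPS10, MRPS11, MRPS12, MRPS27, MRPS31 and MRPS35. The CHD8 folds of members with TRRAP (median 18.1, 25th to 75th percentile 15.9 to 25.7, 41 genes) and without it (19.0, 14.1 to 27.9, 36 genes) overlapped widely. Over all protein-coding genes with CHD8, the median fold was 13.3 with TRRAP and 10.6 without. None of the 37 members without TRRAP had a TRRAP peak within 2500 bp of the start. That range adds few genes in general, since the TRRAP share of all genes was 34.9% within 1 kb and 36.4% within 2500 bp. The nearest TRRAP peak of these 37 members was a median of 41276 bp away (3872 to 1205805 bp), a distance not computed for other genes.

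The TRRAP share of the members with CHD8 was 53.2% (41 of 77, 42.2 to 64.0), beside 60.7% of all genes with CHD8, which lies within that interval. TRRAP was present at 77.6% of all genes in the strongest CHD8 bin and at 30.7% in the weakest, and the members had strong CHD8 peaks, so the other genes were also weighted to the members' deciles of CHD8 rank. They then had TRRAP in 71.0% of cases, above the upper limit of the members' interval. Weighting by CHD8 width instead gave 64.6%, weighting by CpG ratio gave 57.8%, and weighting by CHD8 rank and CpG ratio together, in 5 classes of each, gave 67.8%. The gap therefore appeared when CHD8 strength or width was held alike, narrowly for width, and not when the CpG ratio alone was. The weighting was not run for other gene groups, so the gap is not shown to be particular to the members. Among genes with CHD8, TRRAP was at 51.4% of complex I (NDUF) genes (median CHD8 fold 17.3). It was at 66.7% of cytosolic ribosomal protein genes with CHD8 (17.9). In the strongest CHD8 bin, 12 of 24 members had TRRAP (50.0%, 31.4 to 68.6), against 858 of 1097 other genes (78.2%, 75.7 to 80.6). Over the 3 strongest bins the counts were 32 of 55 members (58.2%, 45.0 to 70.3) and 2472 of 3308 other genes (74.7%, 73.2 to 76.2).

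**Figure D2:**
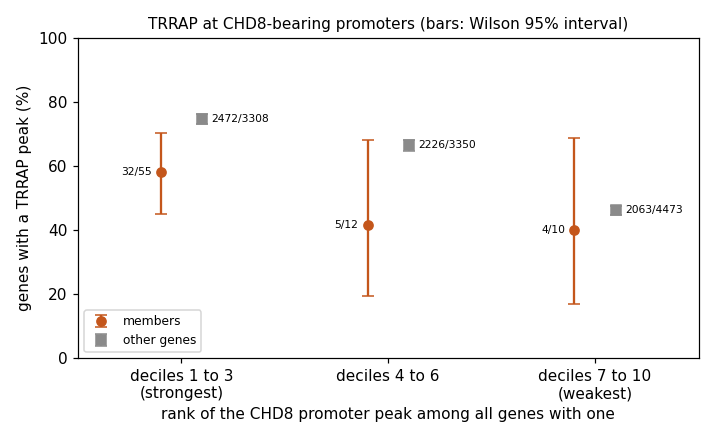
Share of CHD8-bearing genes that also had a TRRAP promoter peak (y axis, percent) by the rank of their CHD8 peak (x axis), for members (circles) and other protein-coding genes (squares), with Wilson 95% intervals and counts. In the strongest deciles members stood at 58.2% and other genes at 74.7%, and in the weaker deciles the members' intervals include the other genes' values.

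Grouped by symbol, the genes of the 2 subunits were alike in the share with CHD8 and could not be told apart in TRRAP at this number of genes. A symbol does not always match the place of the product, as for MRPS18A and MRPS36, described below. CHD8 was present at 48 of 49 MRPL genes (98.0%, 89.3 to 99.6) and 29 of 29 MRPS genes (88.3 to 100). TRRAP was present at 23 of 49 MRPL genes (46.9%, 33.7 to 60.6) and 18 of 29 MRPS genes (62.1%, 44.0 to 77.3), and these intervals overlap. Weighted to CHD8 rank, other genes gave 71.3% for the large subunit, where 47.9% (34.5 to 61.7) of members with CHD8 had TRRAP, and 70.5% for the small subunit, which lies inside the interval of its 62.1%. Median CHD8 folds were 21.7 (14.2 to 26.8) and 16.8 (14.2 to 23.5), respectively, with the same lower quartile.

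Members with particular roles covered most of this range. MRPS12, which corresponds to the bacterial protein that governs decoding accuracy, had a CHD8 fold of 28.3 and no TRRAP. Its CHD8 peak (chromosome 19, 38930261 to 38930889) ended before the start site, with the summit 283 bp upstream. The summit was nearer, at 102 bp, to the start of SARS2, which lies on the other strand 181 bp from that of MRPS12. MRPS27, a protein with pentatricopeptide repeats, had a CHD8 fold of 24.8 (chromosome 5, 72319884 to 72320815), and MRPL58, a release factor that rescues stalled ribosomes, had one of 22.1 (chromosome 17, 75012290 to 75013218). Neither had TRRAP. PTCD2 starts 133 bp from MRPS27 on the other strand, so the CHD8 peak there cannot be assigned to MRPS27 alone. MRPL12, a stalk protein that has also been reported to bind the mitochondrial RNA polymerase, was among the weakest, with a CHD8 fold of 9.75 (chromosome 17, 81703172 to 81703811) and no TRRAP. Another protein-coding start lies 4 bp from that of MRPL12.

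The 3 MRPS18 genes encode homologs of a single bacterial protein, and only MRPS18B and MRPS18C belong to the small subunit, since the product of MRPS18A sits in the large one. MRPS18A had the weakest CHD8 peak of the family (chromosome 6, 43687494 to 43687870, fold 8.43) and no TRRAP. MRPS18B, on the same chromosome, had the widest CHD8 peak, 1409 bp (30616746 to 30618154, fold 15.9), and a TRRAP fold of 12.5. MRPS18C had a CHD8 fold of 18.1 (chromosome 4, 83455485 to 83456300) and a TRRAP fold of 7.21, with the summits 6 bp apart, the smallest separation in the family. The peaks at these starts thus differed in width, in fold and in the presence of TRRAP. MRPS18B and MRPS18C each have a gene on the other strand that starts nearby (PPP1R10 at 597 bp and HELQ at 235 bp). MRPS18A has no other protein-coding start within 1 kb. The peaks of MRPS18B and MRPS18C therefore cannot be assigned to them alone.

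MRPL23, which lies at the exit of the protein tunnel, was the exception in CHD8. Its start on chromosome 11 at 1947332 lay in a stretch with few peaks of either list: the nearest CHD8 peaks ended 183057 bp before it and began 150257 bp after it, with folds of 9.75 and 9.31. The nearest TRRAP peaks were 253872 and 586458 bp away. The CpG ratio of its promoter, 0.827, was in the range of the members that had TRRAP (0.564 to 1.01).

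The summits clustered tightly around the start site. The CHD8 summit lay within 100 bp of it at 61 of 77 members (79.2%, 68.9 to 86.8), against 47.1% (46.1 to 48.0) of all genes with a CHD8 promoter peak. For TRRAP the counts were 24 of 41 (58.5%, 43.4 to 72.2) against 42.5% (41.4 to 43.7). The median position of the CHD8 summits was −18.0 bp, with quartiles of −61.0 and 45.0 bp, and that of the TRRAP summits was −56.0 bp, with quartiles of −129 and 32.0 bp. Over all genes with a peak the quartiles lay farther apart, at −153 and 69.0 bp for CHD8 and at −188 and 53.0 bp for TRRAP. By annotation, 49 CHD8 summits lay upstream of the transcript, 8 in the 5′ UTR, 13 in coding sequence, and 7 in an intron. Of the 41 TRRAP summits, 26 were upstream, 7 in the 5′ UTR, 4 in coding sequence and 4 in an intron.

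**Figure D3:**
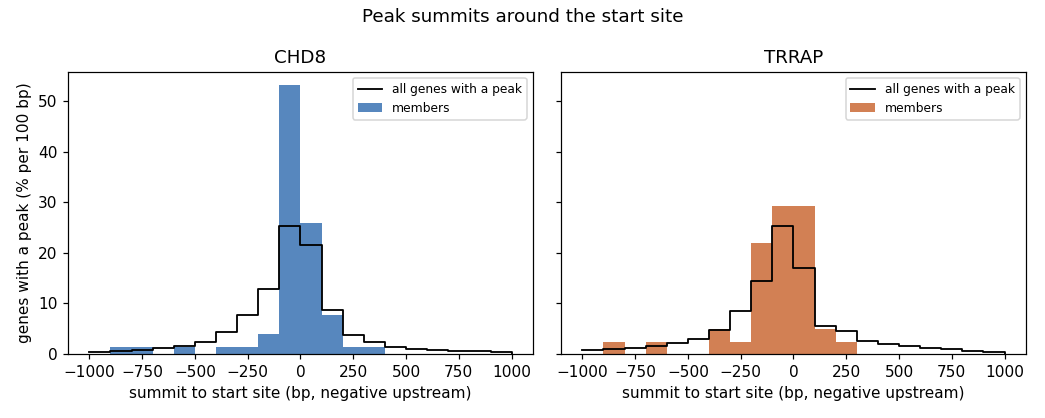
Distance of the strongest CHD8 (left) and TRRAP (right) summit from the start site in 100 bp bins (x axis, bp, negative upstream), as a percentage of genes with a peak (y axis), for members (bars) and all protein-coding genes with a peak (line). The members' CHD8 bars rise well above the line within 100 bp of the start, where 79.2% of members and 47.1% of all genes lie.

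At the 41 genes with both proteins the strongest peaks overlapped in 40 cases (97.6%), near the 92.4% of all genes with both. The median distance between their summits was 81.0 bp (29.0 to 166 bp), and over all genes with both it was 105 bp (40.0 to 252 bp). The exception was MRPL41, a protein of the large subunit, whose CHD8 peak on chromosome 9 (137551787 to 137552066) began past the end of its TRRAP peak (137551385 to 137551578). The TRRAP peak was the narrower of the pair at 38 of 41 members and at 92.1% of all genes. A window with more than 1 CHD8 peak was found at 5 of 77 members (6.49%) and at 23.2% of all genes with CHD8.

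Many members share their promoter with a gene on the other strand. Another protein-coding start lay upstream within 1 kb in head-to-head orientation at 26 of 78 members (33.3%, 23.9 to 44.4), against 9.46% (9.06 to 9.87) of all protein-coding genes. The starts of such pairs were a median of 192 bp apart. At these pairs a peak cannot be assigned to one gene. The CHD8 summit lay between the starts in 16 of the 26 cases, and it was closer to the partner's start in 8. MRPL18 shows this best. Its CHD8 peak (chromosome 6, 159789422 to 159790723) had its summit 882 bp from the MRPL18 start, the most upstream of the family, and 17 bp from the start of TCP1, a chaperonin subunit. At MRPL40 the CHD8 summit was 62 bp from the start of HIRA, which encodes a histone chaperone. At MRPL51 the TRRAP summit lay at −826 bp, the most distant of the family, and the partner NCAPD2, a condensin subunit, starts 840 bp away.

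MRPL46 and MRPS11 are the only members that share a promoter with each other. Their starts on chromosome 15, at 88467388 and 88467708, are 320 bp apart, and a single CHD8 peak at 88467070 to 88467954 served both counts, with a fold of 29.2 and its summit 13 bp from the MRPL46 start. Neither had TRRAP. The 77 members with CHD8 therefore rested on 76 different peaks. At the 49 members with no other protein-coding start within 1 kb, CHD8 was present at 48 (98.0%) and TRRAP at 26 (53.1%), and the median CHD8 fold was 18.4. Over all genes with no other such start, 50.9% had CHD8 and 31.7% had TRRAP. The CHD8 share of the members was thus as high without shared promoters. The most downstream CHD8 summit, 300 bp past the start and in intron 1, was at MRPS36, a gene that carries a ribosomal symbol although its product has since been assigned to the alpha-ketoglutarate dehydrogenase complex.

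The consensus words were counted in the 300 bp window of all 20033 promoters. The YY1 word was found in 13 of the 78 members' promoters (16.7%, 10.0 to 26.5), against 2.84% of all promoters, 4.91% of those with a CHD8 peak and 3.77% of others weighted to the members' CpG deciles. It was present in 8 MRPL and 5 MRPS promoters. It was also present in 7 of 37 NDUF promoters (18.9%, 9.48 to 34.2) and 10 of 88 promoters of cytosolic ribosomal proteins (11.4%, 6.29 to 19.7), whose intervals overlap that of the members. The ETS word was found in 12 members (15.4%, 9.03 to 25.0), 10 MRPL and 2 MRPS, against 6.14% of all promoters. The interval of the members includes the 10.3% of promoters with CHD8, and its lower limit lies just above the 8.68% of other genes weighted to the members' CpG deciles. The NRF1 word was found in 4 members (5.13%, 2.01 to 12.5, all promoters 2.83%), the E-box in 7 (8.97%, 4.42 to 17.4, all 8.76%) and the E2F word in 2 (2.56%, 0.706 to 8.88, all 2.23%). The shares for the E-box and E2F words were thus close to those of all promoters, with wide intervals. TRRAP was present at 4 of 7 members with the E-box (57.1%, 25.0 to 84.2) and at 37 of 71 without it (52.1%, 40.7 to 63.3). It was present at 1 of 2 members with the E2F word and at 40 of 76 without it. An association of these 2 words with TRRAP was not tested. The SP word occurred in 36 members (46.2%, 35.5 to 57.1), close to the 47.1% of all promoters and below the 59.5% of those with CHD8. The NFY word occurred in 22 members (28.2%, 19.4 to 39.0), and the 36.1% of all promoters and 37.5% of those with CHD8 lie inside that interval.

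**Figure D4:**
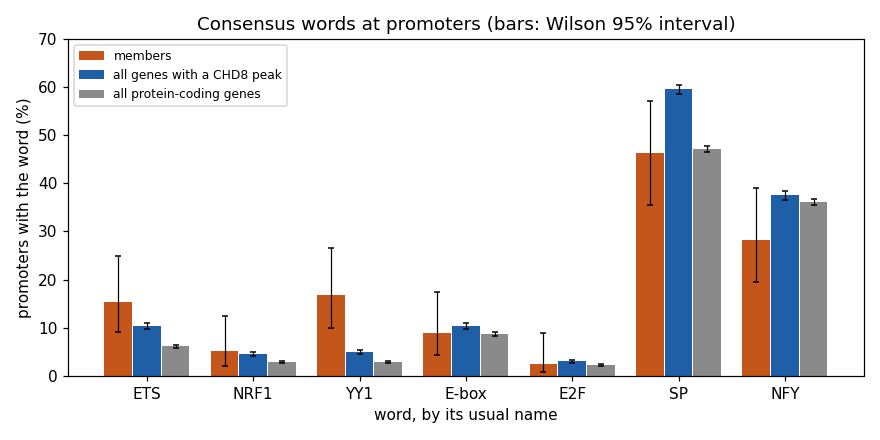
Share of promoters (y axis, percent) that hold each of the 7 consensus words from 250 bp before to 50 bp after the start, for members, all genes with a CHD8 promoter peak and all protein-coding genes, with Wilson 95% intervals. The YY1 word is at 16.7% of members and 4.91% of CHD8-bearing genes, while the E-box and E2F bars of the members lie close to those of all genes.

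The YY1 words are printed here because they often fall on the start of translation. Each line gives the word in capitals with 10 bases on each side, read along the word. In these 6 genes the ATG inside the word is the annotated start codon, close to the start of the transcript.
MRPL38, chr17:75904860-75904888, minus strand: ggccggagggAAGATGGCGgcgccctggt
MRPL46, chr15:88467362-88467390, minus strand: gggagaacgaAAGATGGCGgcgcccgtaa
MRPS10, chr6:42217834-42217862, minus strand: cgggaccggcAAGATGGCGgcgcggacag
MRPS18A, chr6:43687764-43687792, minus strand: taggtttttgAAGATGGCGgccctcaagg
MRPS30, chr5:44808950-44808978, plus strand: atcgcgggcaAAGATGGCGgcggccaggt
MRPS18B, chr6:30617853-30617881, plus strand: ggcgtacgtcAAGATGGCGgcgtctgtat

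The same held for MRPL50, MRPS24 and MRPL22, so the word covered the start codon in 9 of the 13 members with it (69.2%, 42.4 to 87.3), against 263 of 568 genes overall (46.3%, 42.2 to 50.4). Across the family that is 9 of 78 genes (11.5%, 6.19 to 20.5), against 1.31% of all genes. At NDUF genes, the complex I subunits, it was 7 of 37 (18.9%, 9.48 to 34.2), and at cytosolic ribosomal protein genes 4 of 88 (4.55%, 1.78 to 11.1). In MRPL32, MRPL36 and MRPL42 the word did not cover the start codon. Neither did it in MRPL52, which held 2 copies before the start site, and 1 of them had its middle 1 bp from the CHD8 summit. All 13 members with the word had CHD8, as did 96.8% of all genes with it. The 14 matches in the members were a median of 31.0 bp from the CHD8 summit. This distance was not computed for other genes, and most of these matches and of the members' CHD8 summits lay near the start site. TRRAP was present at 5 of the 13 (38.5%, 17.7 to 64.5), against 62.0% of all genes with the word and CHD8, which is inside the interval.

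The ETS words lay close before the start site, with a median position of −35.5 bp for the first base, and on either strand. Of the 14 matches, 10 (71.4%) lay within 50 bp of the start, near the 63.4% of matches over all genes. They are shown for MRPL3, MRPL20 and MRPS34, which had both proteins, and for MRPL53, MRPL47 and MRPL16, which had CHD8 alone.
MRPL3, chr3:131502986-131503013, minus strand: gtaaaacgcaCCGGAAGTgggtccggcg
MRPL20, chr1:1407320-1407347, minus strand: gaccttcgccCCGGAAGTatcgcagggg
MRPS34, chr16:1773137-1773164, plus strand: agcggtccggCCGGAAGTcaccggaaga
MRPL53, chr2:74472735-74472762, minus strand: cagccggcggCCGGAAGTctatcccgca
MRPL47, chr3:179604660-179604687, minus strand: gcttgagacgCCGGAAGTgacgctatcg
MRPL16, chr11:59810768-59810795, plus strand: ctcagtggggCCGGAAGTtgtgttcact

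TRRAP was present at 8 of the 12 members with the ETS word (66.7%, 39.1 to 86.2) and at 33 of the 66 without it (50.0%, 38.3 to 61.7), and these intervals overlap. In MRPL3 the middle of the word was 13 bp from the CHD8 summit, and in MRPL53 it was 9 bp from it, although TRRAP differed between these genes. These were close examples, since the 14 ETS matches were a median of 76.5 bp from the CHD8 summit, a distance not computed for other genes. TRRAP was present at 18 of 36 members with the SP word (50.0%, 34.5 to 65.5) and 23 of 42 without it (54.8%, 39.9 to 68.8). At members with the NFY word it was present at 8 of 22 (36.4%, 19.7 to 57.0), and at those without it at 33 of 56 (58.9%, 45.9 to 70.8), with intervals that overlap.

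The other genes of mitochondrial translation also had CHD8 throughout. Of 34 such genes, all had CHD8 (89.8 to 100) and 21 had TRRAP (61.8%, 45.0 to 76.1), with a median CHD8 fold of 14.6. The median was 22.6 at the mitochondrial ribosomal proteins with other symbols, 13.7 at translation factors and 13.3 at assembly factors. The CHD8 peak of NOA1, an assembly factor, had a fold of 8.87 and was counted by overlap. Its summit lay at −1227 bp, outside the 1 kb window. The 5 mitochondrial ribosomal proteins with other symbols had folds of 14.2 (CHCHD1), 17.7 (DAP3), 22.6 (PTCD3), 28.8 (AURKAIP1) and 30.1 (GADD45GIP1), and 3 of them had TRRAP. Among 10 translation factors, 5 had TRRAP, among them MTIF2, the initiation factor (CHD8 fold 29.6, TRRAP fold 9.60), and TUFM, the elongation factor that delivers transfer RNA (20.4 and 5.78). GFM1 and GFM2, both named for elongation factor G, had CHD8 folds of 12.4 and 20.4 and no TRRAP. Of 19 factors for ribosome assembly and RNA modification, 13 had TRRAP, and NSUN4, a methyltransferase of ribosomal RNA, had the highest TRRAP fold of the pathway, 24.9, above any member.

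A pair of related gene groups was set beside the family. CHD8 was present at 37 of 37 NDUF genes (90.6 to 100) and at 84 of 88 cytosolic ribosomal protein genes taken by symbol (95.5%, 88.9 to 98.2). Median CHD8 folds were 17.3 and 17.9, close to the 18.1 of the members. TRRAP was present at 19 NDUF genes (51.4%, 35.9 to 66.6) and 56 cytosolic ribosomal protein genes (63.6%, 53.2 to 72.9), so the intervals of all 3 groups overlap. The cytosolic group had wider CHD8 peaks, with a median of 814 bp (678 to 1002 bp) against 698 bp. A high share of genes with CHD8 was therefore common to all 3 groups.

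**Figure D5:**
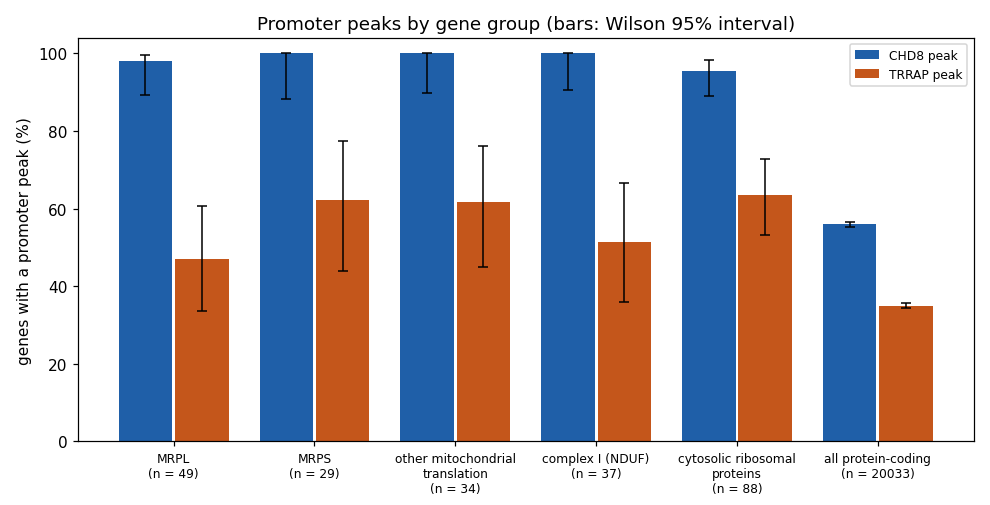
Share of genes with a CHD8 and a TRRAP promoter peak (y axis, percent), with Wilson 95% intervals. Groups are the MRPL and MRPS genes by symbol, other genes of mitochondrial translation, complex I, cytosolic ribosomal proteins and all protein-coding genes. All named groups stand at 95.5% or more for CHD8 against 55.9% of all genes, and their TRRAP intervals overlap one another.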

How the data were processed

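ChIP-seq peak lists of 1 CHD8 and 1 TRRAP library from H9-derived neural stem cells were analysed. HISAT2, MACS2 2.1.1.20160309 and GRCh38 are named, per the submitters' processing notes, and parameters, the control and read totals are not given in the sources used here. The fold (ratio), the −log10 p and −log10 q and the score of each peak are as deposited by the authors; the score equals 10 times the −log10 q, rounded down, and was not used further. The CHD8 list is named for a false discovery rate of 0.0001 and the TRRAP list for 0.001. The lowest −log10 q of a TRRAP peak at a member was 5.33, so the difference in cutoff touched none of them. The CHD8 list held 23393 peaks and the TRRAP list 14735.

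A peak was at a promoter if it overlapped, by at least 1 bp, the 1 kb on each side of the canonical start (GENCODE 44). With several peaks the most significant was used, with ties in −log10 q broken by fold, width and position. Weighted shares average the shares of other genes per decile with the members' numbers as weights. Sequences were read from the GRCh38 genome; 69 members were in the RefSeq promoter table (GRCh38.p14), 68 with an identical window. The members and lists were chosen with earlier results of these data known. Named genes were those with the highest folds, the widest peaks, the most distant summits, no CHD8 peak, or a CHD8 fold above the members' median without TRRAP, and members of known role. Others were named as examples of an overlap, a shared promoter or a word and were chosen after their values were seen. The code was tested on simulated data. Python 3.11.15, numpy 2.4.6, scipy 1.17.1 and matplotlib 3.10.9 were used.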

Additional observations from a re-analysis of the deposited data

How the results depend on the processing

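Alternatives were windows of 500 and 2500 bp, peaks counted by summit, starts of all coding transcripts, peaks above the median rank of their list, and members with no other coding start within 1 kb; for fold, width and offset, the nearest summit was also used. Of 42 alternative values, 39 stayed inside the 95% interval of the reported value, taken for medians from order statistics. The 3 others came from peaks above the median rank, which by construction leaves fewer peaks. The TRRAP share and the share with both then fell to 30.8%, against 19.5% and 16.7% of all genes, and TRRAP was at 32.4% of members with CHD8, against 39.3% of all genes with CHD8. The CHD8 share there was 94.9%, against 42.5% of all genes. The weighted shares and word counts were computed under the main definition only. No paired analysis was possible because each antibody had 1 library. Leaving out a replicate was likewise not possible.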
